A study of Homo sapiens with 2 samples.

Results

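The class I histone deacetylases and subunits of the complexes that carry them were described across WaGa cells labelled untreated and labelled treated with domatinostat. The members are the 10 genes named for this purpose: the deacetylases HDAC1, HDAC2, HDAC3 and HDAC8, the demethylase KDM1A, and RCOR1, SIN3A, CHD4, MTA1 and MTA2. All 10 were found among the 32742 genes of the deposited table, and all 10 had at least 100 UMIs over both libraries. WaGa, an established human cell line, comes from a Merkel cell carcinoma, a neuroendocrine cancer of the skin, and is positive for Merkel cell polyomavirus. Domatinostat is an inhibitor of the class I deacetylases that is also known to inhibit LSD1, the product of KDM1A. The treated cells were seeded in 6-well plates and received the inhibitor dissolved in DMSO. The control cells carry the label of no treatment, and the dose, the time and any solvent given to the controls are not stated. Each group was 1 single-cell library of 1 cell line, made with the 10x Genomics 3′ chemistry.

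Histone deacetylases take acetyl groups off lysines of histones, which is mostly linked to lower transcription, and off other proteins as well. HDAC1 and HDAC2 have little activity alone and work in the CoREST, SIN3, NuRD and MiDAC complexes, HDAC3 works in NCoR corepressor complexes, and HDAC8 acts without such a complex and deacetylates the cohesin subunit SMC3. Class I inhibitors block the catalytic zinc site of these enzymes, so the RNA levels given here are levels of the drug's targets and of their partners, not their activity.

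Depth came to 45562976 UMIs over 4137 cells labelled untreated (median 11125 per cell) and 60160108 UMIs over 6679 cells labelled treated (median 8578). The libraries shared 48 cell barcodes, whose cells were counted separately. All 10 Merkel cell carcinoma markers were detected in both libraries, from 6.34 CPM (counts per 1000000 UMIs of a library) for ATOH1 to 886 CPM for CHGA in the library labelled untreated, while the 3 T cell markers summed to 0.0219 and 0 CPM. SFN, a keratinocyte marker, was the highest of the other cell types' markers at 88.3 and 42.9 CPM. The measured markers of B cells, myeloid cells, melanocytes and fibroblasts were lower in the library labelled treated in their sums, and their part in the results below was not tested. CDKN1A, a cell cycle inhibitor gene that deacetylase inhibitors are known to raise, went against the label, with 97.9 CPM in cells labelled untreated against 39.4 CPM in cells labelled treated, as did H1F0 with 214 and 167 CPM. Both come from a list of 6 genes that such inhibitors are known to raise, of which 4 had at least 50 UMIs. Of these 4, 3 had an interval below 1, and 1 had a ratio above 1 with an interval that held 1. The libraries are therefore called labelled untreated and labelled treated throughout.

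The sequences upstream of HDAC1 and MTA2 are shown because these were the members with the lowest and the highest ratio of treated to untreated CPM. Each is the 250 bases before the RefSeq transcript start in the GRCh38.p14 assembly, 5′ to 3′ on the gene's strand, at chr1:32291833-32292082 (plus strand) and chr11:62601866-62602115 (minus strand). Capitals mark matches on either strand to the GC box letters GGGCGG, which can overlap each other, and to the CCAAT box letters CCAAT. The files themselves use the build hg19, and no coordinate of that build is given.
HDAC1: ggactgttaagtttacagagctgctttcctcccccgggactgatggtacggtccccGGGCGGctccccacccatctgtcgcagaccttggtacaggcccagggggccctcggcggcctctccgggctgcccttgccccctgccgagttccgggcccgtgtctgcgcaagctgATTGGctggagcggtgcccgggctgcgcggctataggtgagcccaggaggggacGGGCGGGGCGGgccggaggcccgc
MTA2: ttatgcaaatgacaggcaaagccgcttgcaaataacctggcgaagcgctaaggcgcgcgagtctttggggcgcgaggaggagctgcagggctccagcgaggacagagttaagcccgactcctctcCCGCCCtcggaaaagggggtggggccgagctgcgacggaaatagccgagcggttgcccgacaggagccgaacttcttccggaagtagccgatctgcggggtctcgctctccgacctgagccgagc
The HDAC1 window held 3 GC box matches and 1 CCAAT match, and the MTA2 window 1 GC box match and 0 CCAAT matches. Of 27305 RefSeq windows of this length, 42.3% held a GC box match and 33.0% a CCAAT match. TATAAA, searched as well, was in neither window and in 11.1% of all windows. Their GC contents were 71.6% and 63.2%, with a median of 58% over all windows. These matches describe the letters only.

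The first comparison asked whether the targets of the drug and their partners had other RNA levels in treated than in untreated cells. HDAC1 and HDAC2 were lower in the library labelled treated, SIN3A, MTA1 and MTA2 were higher, and HDAC3, HDAC8, KDM1A, RCOR1 and CHD4 had ratios from 0.923 to 1.05. Each group being 1 library, the differences have no replicate check and no test, and the 95% intervals (Clopper-Pearson) cover counting error only. The interval lay above 1 for 4 members, against 30.5% of the 12812 genes with at least 100 UMIs, and below 1 for 3 members, against 34.2%, and it held 1 for HDAC3, HDAC8 and RCOR1. At least 1.5-fold higher was 1 member, MTA2, against 3.17% of those genes, and 0 members were at least 1.5-fold lower, against 12.2%. A ratio of treated to untreated at least 25% above 1 was found for 2 members, MTA2 and SIN3A, against 13.2% of genes, and one at least 20% below 1, which is the same fold, for 1 member, HDAC1, against 21.8%. These are called the lower fold mark. The median log2 ratio was -0.04 over the 10 members and -0.01 over all 12812 genes.

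**Figure D1:**
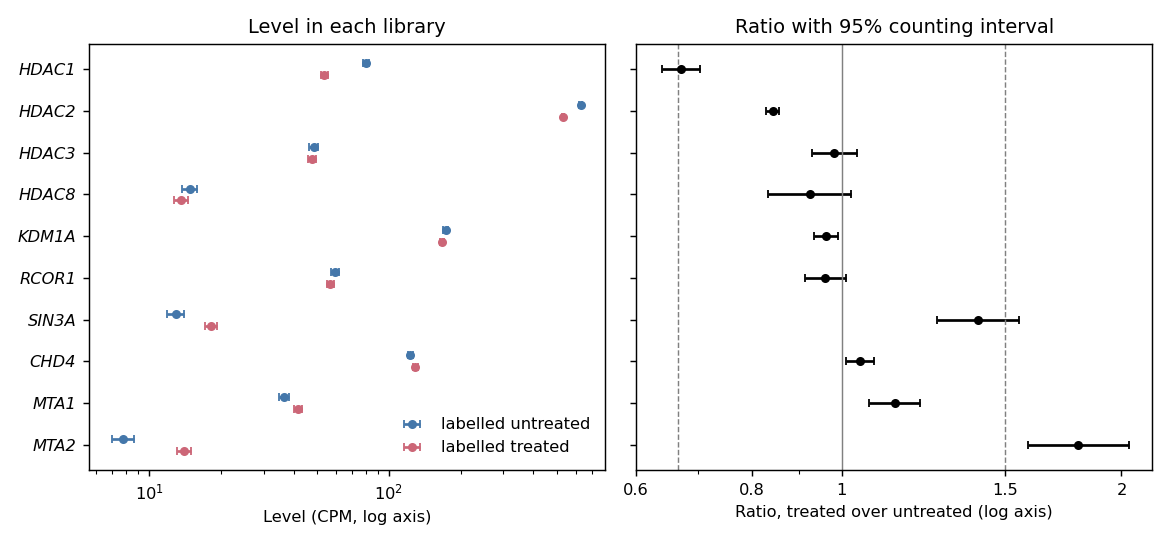
Level of each member in counts per 1000000 UMIs (CPM, log axis, left) in the library labelled untreated (blue) and labelled treated (red), and the ratio of treated to untreated (log axis, right). Bars are 95% counting intervals, and dashed lines mark 1.5-fold. HDAC1 lies near the lower dashed line at 0.671, and MTA2 lies above the upper one at 1.80.

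Among the deacetylases, HDAC2 was by far the most abundant transcript and HDAC1 differed most between the libraries. HDAC1 had 80.2 CPM (77.6 to 82.8) in the library labelled untreated and 53.8 CPM (51.9 to 55.7) in the library labelled treated, from 3653 and 3235 UMIs. Its ratio was 0.671 (0.640 to 0.703), or 1.49-fold lower, just short of the 1.5-fold mark. In thinned cells, which all keep 4351 UMIs so that depth is equal, HDAC1 had a UMI in 28.9% (27.5% to 30.4%) of cells labelled untreated and 20.7% (19.7% to 21.7%) of cells labelled treated. Unthinned, these shares were 54.4% and 36.0%. No cell type that lacks the gene was at hand to gauge free RNA. Of 7059 genes whose mean level lay within the members' range, 4.67% had a ratio at or below that of HDAC1, compared with 12.5% of all 12812 genes.

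HDAC2, the close paralog of HDAC1, had 630.1 CPM (622.9 to 637) in the library labelled untreated and 531 CPM (525 to 537) in the library labelled treated. Its ratio of 0.842 (0.829 to 0.856) was closer to 1 than that of HDAC1, and the intervals of both ratios did not overlap. A UMI of HDAC2 was present in 96.8% of untreated and 94.3% of treated cells by label, and in 89.8% and 87.2% after thinning. HDAC3, the deacetylase of NCoR complexes, had 48.5 and 47.6 CPM and a ratio of 0.981 (0.928 to 1.04). HDAC8 had 14.7 and 13.6 CPM and a ratio of 0.923 (0.832 to 1.02).

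Summed over the 4 deacetylases, cells labelled untreated had 774 CPM and cells labelled treated 646 CPM, with a ratio of 0.835 (0.823 to 0.847). Their proportions do not depend on the scaling of the libraries. HDAC1 made up 10.4% (10.0% to 10.7%) of the UMIs of the 4 genes in the library labelled untreated and 8.33% (8.05% to 8.61%) in the library labelled treated. HDAC2 made up 81.5% and 82.2%, HDAC3 6.28% and 7.37%, and HDAC8 1.91% and 2.11%. In cells called G1 the shares stood the other way, with 9.04% and 9.40% for HDAC1 and 83.7% and 80.7% for HDAC2. These G1 shares rest on 219 and 170 UMIs of HDAC1 and 2028 and 1459 UMIs of HDAC2. No interval was computed for them, so a turn is not shown beyond counting error. The quotient of HDAC1 to HDAC2 UMIs was 0.127 (0.123 to 0.132) and 0.101 (0.0977 to 0.105). UMIs counted at the 3′ end do not grow with transcript length, but capture can differ between genes, so these are proportions of captured transcripts.

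KDM1A, which encodes the demethylase LSD1, and RCOR1, which encodes the scaffold that joins it to HDAC1 and HDAC2, had nearly equal levels in both libraries. KDM1A was the second most abundant member, with 172 CPM (169 to 176) in cells labelled untreated and 166 CPM (163 to 169) in cells labelled treated, and its ratio was 0.961 (0.933 to 0.990). After thinning, 50.5% and 51.1% of cells had a UMI of it. Its direction turned with the cells used: the ratio was 1.11 (1.06 to 1.16) in cells called S phase and 0.803 (0.769 to 0.838) in cells called G2/M, over all their UMIs. RCOR1 had 59.4 and 57.0 CPM, a ratio of 0.959 (0.912 to 1.01), and a UMI in 21.6% of thinned cells of either library. The paralogs had higher ratios: RCOR2 had 18.5 and 25.8 CPM, a ratio of 1.40 (1.28 to 1.52), and RCOR3 a ratio of 1.19. RCOR1 made up 66.5% (65.0% to 67.9%) of RCOR UMIs in the library labelled untreated and 59.1% (57.8% to 60.3%) in the library labelled treated. KDM1B, the paralog of KDM1A, made up 6.06% and 7.12% of the UMIs of the pair.

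SIN3A, the scaffold of the SIN3 complex, had 12.9 CPM (11.9 to 14.0) in the library labelled untreated and 18.2 CPM (17.1 to 19.3) in the library labelled treated. Its ratio was 1.40 (1.27 to 1.55), from 590 and 1092 UMIs. In thinned cells 5.86% (5.14% to 6.64%) and 7.68% (7.02% to 8.39%) of cells had a UMI, and unthinned 13.1% and 15.2%. SIN3B, its paralog, had a ratio of 1.28 (1.14 to 1.44), and the 2 scaffolds together had 23.1 and 31.2 CPM, a ratio of 1.35. SIN3A made up 56.1% and 58.3% of their UMIs, with overlapping intervals.

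The NuRD members ranged from close to 1 to the highest ratio of all. CHD4, the main ATPase of NuRD, had 123 CPM (120 to 126) and 129 CPM (126 to 132), a ratio of 1.05 (1.01 to 1.08). Over all UMIs of the cells, its ratio was 1.14 (1.08 to 1.20) in cells called S and 0.911 (0.867 to 0.957) in cells called G2/M. In thinned cells, which have equal depth, it was 1.12 (1.04 to 1.22) in S and 0.983 (0.905 to 1.07) in G2/M, where the interval held 1. MTA1, a subunit that binds and activates HDAC1 and HDAC2, had 36.7 and 41.8 CPM and a ratio of 1.14 (1.07 to 1.21). MTA2, another such subunit, had 7.81 CPM (7.02 to 8.67) in the library labelled untreated and 14.0 CPM (13.1 to 15.01) in the library labelled treated. Its ratio of 1.80 (1.58 to 2.04) rests on 356 and 844 UMIs, with at most 2 and 3 UMIs in any cell. Thinned, 3.29% (2.75% to 3.90%) of cells labelled untreated and 6.07% (5.48% to 6.70%) of cells labelled treated had a UMI, and unthinned 8.17% and 11.8%. A ratio at or above that of MTA2 was found in 118 of all 12812 genes, or 0.921%. It was found in 24 of the 7059 genes within the members' range of levels, or 0.340%. That range starts at the mean level of MTA2, so most of its genes are more abundant. In it 1.77% of genes were at least 1.5-fold higher.

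The 3 MTA genes together had 62.8 and 68.2 CPM, a ratio of 1.09 (1.04 to 1.14), but their proportions differed. MTA2 made up 12.4% (11.2% to 13.7%) of MTA UMIs in the library labelled untreated and 20.6% (19.3% to 21.8%) in the library labelled treated. MTA3, the third paralog, was lower, with 18.4 and 12.5 CPM and a ratio of 0.678 (0.613 to 0.749), and made up 29.2% and 18.2% of MTA UMIs. Among the ATPases, CHD3 had a ratio of 1.30 (1.24 to 1.36) and CHD5, a neuronal paralog, one of 0.266 (0.226 to 0.311), with 13.5 and 3.57 CPM. CHD4 made up 62.3% and 60.9% of the UMIs of these 3 genes, and CHD5 6.82% and 1.69%.

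**Figure D2:**
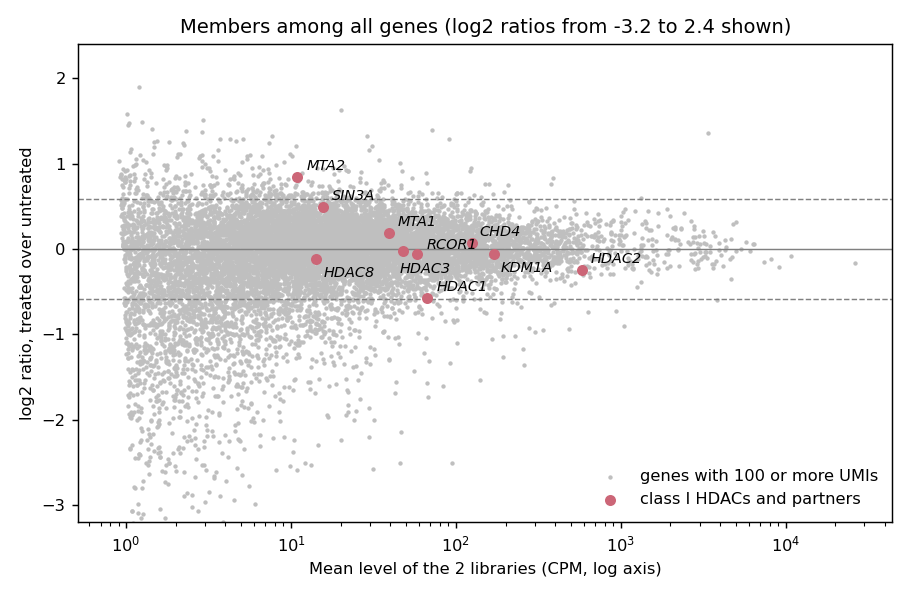
Each point is a gene with at least 100 UMIs, by its mean level in both libraries (CPM, log axis) and its log2 ratio of treated to untreated, with the members in red and dashed lines at 1.5-fold. MTA2 lies at 0.84 and HDAC1 at -0.58, and the other 8 members lie between the dashed lines.

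In order of level, the library labelled untreated ran HDAC2, KDM1A, CHD4, HDAC1, RCOR1, HDAC3, MTA1, HDAC8, SIN3A and MTA2. Among neighbours in this order only the intervals of HDAC8 (13.7 to 15.9 CPM) and SIN3A overlapped. In the library labelled treated HDAC1 stood below RCOR1, and HDAC8 came last. There the intervals of RCOR1 (55.1 to 59.0 CPM) and HDAC1 overlapped, as did those of MTA2 and HDAC8 (12.7 to 14.6 CPM).

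The genes of the same complexes went in both directions. The counts and medians that follow include the members, and 13.2% of all genes lay above the lower fold mark and 21.8% below it. By this count, 3 of 15 CoREST genes lay above the lower fold mark and 2 below it, and the list's median log2 ratio was -0.06. Its 11 genes other than the members had a median of 0.19. The highest CoREST ratios belonged to RCOR2 and to CTBP1, a corepressor gene, at 1.32, and the lowest to ZNF217, a zinc finger gene, at 0.623 (0.535 to 0.726), and HDAC1. Of 18 SIN3 genes, 3 lay above that mark and 1, HDAC1, below it, and the median was 0.11, or 0.14 over the 15 other than the members. SAP30, which links SIN3A to the deacetylases, had 101 and 129 CPM and a ratio of 1.27 (1.23 to 1.32). Of 15 NuRD genes, 4 lay above the lower fold mark and 3 below it, and the median was 0.04, or -0.04 over the 10 other than the members. Intervals lay above 1 for 6 CoREST, 10 SIN3 and 7 NuRD genes, against 30.5% of all genes. They lay below 1 for 7, 6 and 6 genes, against 34.2%. MBD3, a subunit that sets NuRD apart from the MBD2 form, had a ratio of 1.42 (1.33 to 1.502). The histone-binding subunits shared by SIN3 and NuRD differed from each other, with ratios of 1.19 (1.15 to 1.23) for RBBP4 and 0.904 (0.875 to 0.934) for RBBP7.

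The list of NCoR complexes, in which HDAC3 works, had a median log2 ratio of -0.12. In it TBL1XR1, which encodes a core subunit, had a ratio of 0.796, and NCOR1, which encodes the scaffold NCoR, one of 1.16 (1.12 to 1.20). MiDAC had 5 genes and a median of -0.25, the value of HDAC2, and a median of 0.20 over its 3 genes other than HDAC1 and HDAC2, with DNTTIP1 at 1.21 and ELMSAN1 at 1.15. The cohesin list, with SMC3 as the best known substrate of HDAC8, had 7 of 8 genes with an interval above 1, as had 30.5% of all genes, and a median of 0.33. STAG1 and ESCO2, a cohesin subunit and an acetyltransferase of SMC3, had ratios of 1.65 (1.52 to 1.79) and 1.58 (1.43 to 1.73), and ESCO1 was lowest at 1.00. The cohesin genes serve the cell cycle, and the share of thinned cells called G2/M differed between the libraries as well (1288 of 3892 and 2750 of 6012). Within phases the cohesin median was 0.23 in cells called G1, 0.32 in S and 0.41 in G2/M. Whether the cell cycle has a part in the cohesin ratios was not tested.

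**Figure D3:**
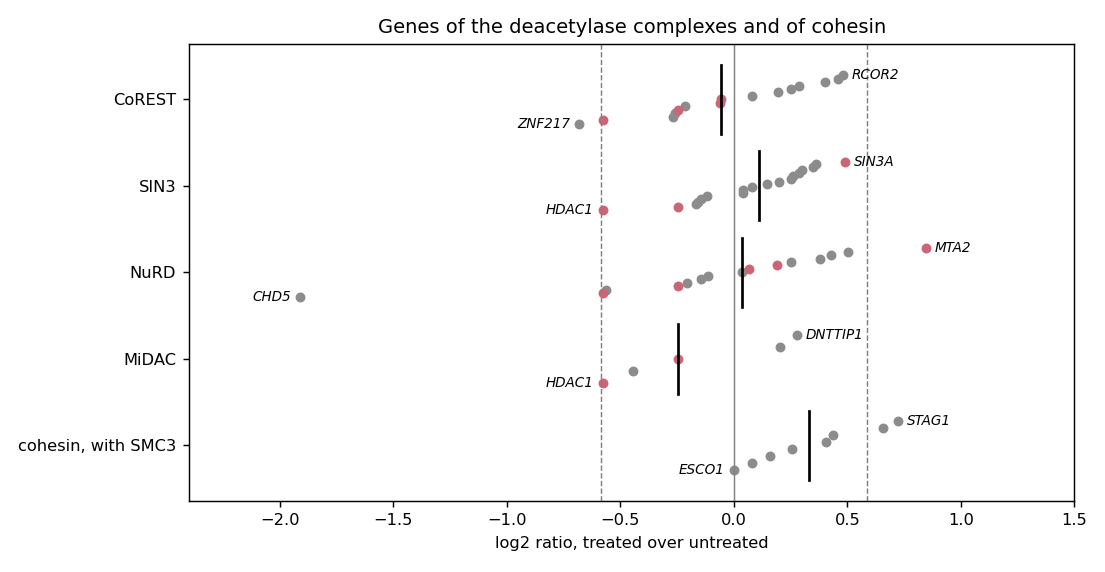
Each point is a gene of 1 of 5 lists by its log2 ratio of treated to untreated, with members in red, the list's median as a black line and dashed lines at 1.5-fold. CHD5 lies far to the left in NuRD at a ratio of 0.266, and MTA2 lies farthest to the right at 1.80.

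The second question was whether the levels depend on the cell cycle. Thinned cells were called G1, S or G2/M from S and G2/M gene lists that hold no member. This gave 423, 2181 and 1288 cells labelled untreated and 399, 2863 and 2750 labelled treated. HDAC1 and HDAC2 had their highest values in cells called S in both libraries, and KDM1A, RCOR1 and CHD4 were higher in cells called G2/M than in cells called S.

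HDAC1 in thinned cells labelled untreated had 47.3 CPM in G1, 87.6 CPM in S and 75.8 CPM in G2/M. In cells labelled treated it had 54.1, 60.4 and 48.3 CPM. The ratio of treated to untreated was thus 0.690 (0.625 to 0.763) in S and 0.637 (0.561 to 0.724) in G2/M, and 1.15 (0.847 to 1.55) in G1, where it rests on 87 and 94 UMIs. Over all UMIs of the same cells the G1 ratio was 0.955 (0.777 to 1.17), and in cells thinned to 8578 UMIs the G1 levels were 63.5 and 47.1 CPM. The direction in G1 is therefore not settled at this depth. HDAC2 was lower in the library labelled treated in all 3 phases, with ratios of 0.857 in G1, 0.884 in S and 0.815 in G2/M. Its levels went from 660 CPM in S to 590 CPM in G2/M in cells labelled untreated, and from 583 to 481 CPM in cells labelled treated.

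KDM1A had 145 CPM in S and 209 CPM in G2/M in cells labelled untreated, 1.45-fold (1.34 to 1.57) more in G2/M. In cells labelled treated it had 152 and 181 CPM, 1.19-fold (1.12 to 1.27) more, with intervals that did not overlap between the libraries. RCOR1 was 1.45-fold (1.27 to 1.67) higher in G2/M than in S in cells labelled untreated and 1.21-fold (1.09 to 1.35) higher in cells labelled treated. For CHD4 these values were 1.34-fold (1.22 to 1.47) and 1.18-fold (1.10 to 1.26). The 3 genes thus shared the direction, and the intervals of RCOR1 and CHD4 overlapped between the libraries.

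MTA2 was higher in the library labelled treated in all 3 phases, with thinned ratios of 2.22 (1.04 to 5.04) in G1, 1.81 (1.37 to 2.42) in S and 1.80 (1.30 to 2.52) in G2/M. Within a library its level in G2/M and in S did not differ beyond counting error. SIN3A was above 1 in all 3 phases too, at 1.19 (0.957 to 1.47) in S and 1.27 (0.985 to 1.66) in G2/M. Its G1 ratio of 4.54 (1.96 to 12.3) came from 7 and 30 UMIs, and was 2.17 (1.36 to 3.52) over all UMIs of the same cells. MTA1 had 26.6 and 33.4 CPM in G1, 36.0 and 41.5 CPM in S, and 38.9 and 42.3 CPM in G2/M. HDAC8 had ratios of 0.961, 0.971 and 0.810 in these phases. HDAC3 had 1.20 (0.856 to 1.68) in G1 and 0.888 (0.772 to 1.02) in G2/M, both with intervals that hold 1, and 1.37 (1.07 to 1.76) over all UMIs of the same G1 cells.

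**Figure D4:**
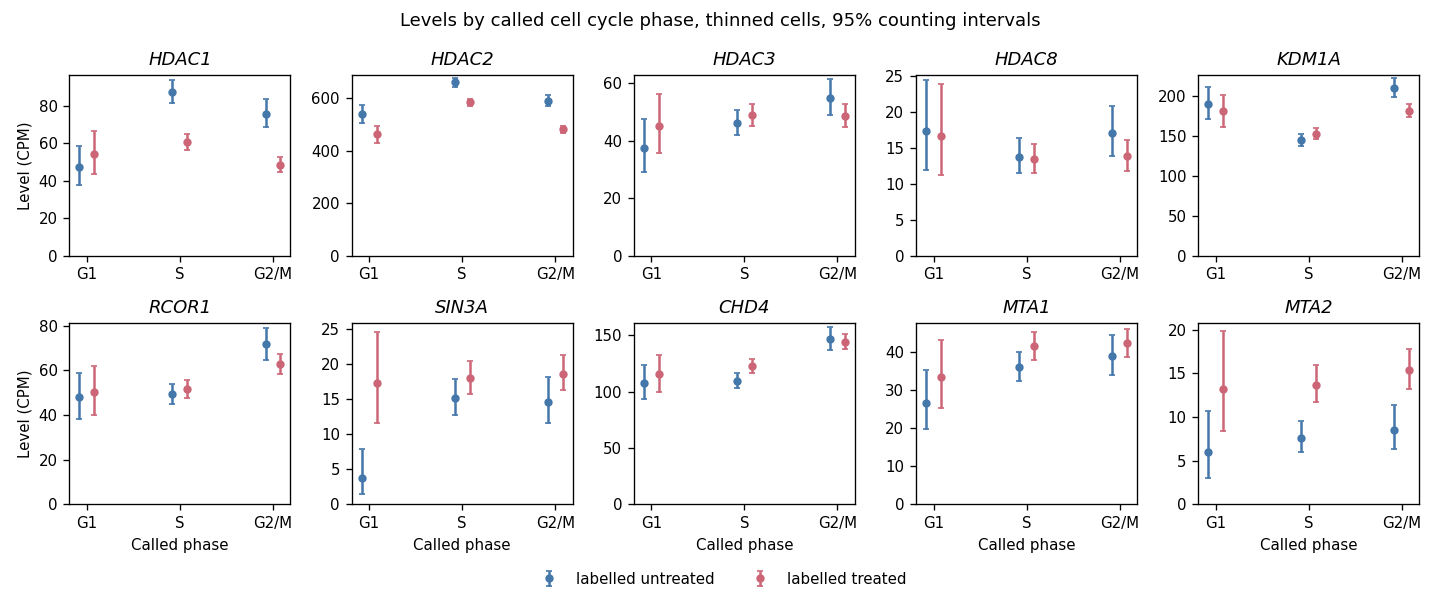
Level of each member (CPM, linear axis from 0) in thinned cells called G1, S and G2/M, labelled untreated in blue and labelled treated in red, with 95% counting intervals. HDAC1 differs between the libraries in S and G2/M, while the G1 intervals overlap, and MTA2 has a higher value in the library labelled treated in each phase, with overlapping intervals in G1.

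Depth per cell differed between the libraries, so the ratios were also taken within windows of UMIs per cell. HDAC1 had ratios of 0.725 (0.626 to 0.843), 0.716 (0.664 to 0.772) and 0.646 (0.596 to 0.699) in cells of 4000 to 7000, 7000 to 12000 and 12000 to 20000 UMIs. MTA2 had 2.03 (1.40 to 3.05), 1.58 (1.29 to 1.94) and 1.77 (1.44 to 2.19) in the same windows, and SIN3A 1.66, 1.41 and 1.29. These members kept their direction in each window, and so did HDAC2. MTA1 stayed above 1, at 1.32, 1.15 and 1.05, but its interval in cells of 12000 to 20000 UMIs held 1 (0.947 to 1.16). CHD4 had ratios of 1.11, 1.14 and 0.983.

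The third question was how the members vary between the cells of a library. Clusters were found within each library alone, and 7 clusters of at least 50 cells in each are described by number and leading genes; they are not cell types. Across the clusters of the library labelled untreated HDAC1 ranged from 60.9 to 92.6 CPM, lowest in cluster 5, led by PIF1 and PLK1. Its interval there (53.8 to 68.7 CPM) overlapped that of cluster 1, led by CEND1 and ID1, with 63.4 CPM (57.8 to 69.4). In the library labelled treated it ranged from 30.4 to 62.2 CPM and had 39.6 CPM in cluster 3, which PIF1 and PLK1 lead there. HDAC2 ranged from 547 to 698 CPM and from 345 to 588 CPM, also lowest in cluster 5 of the library labelled untreated. Between the libraries the ranges of all members but MTA2, the member with the highest ratio, overlapped. How many of all genes had ranges that did not overlap was not counted, so this does not set MTA2 apart from other genes.

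KDM1A, RCOR1 and CHD4 were each highest in the cluster led by CCNB1, the gene of a mitotic cyclin. In cluster 3 of the library labelled untreated they had 274, 89.3 and 195 CPM, against lowest cluster values of 118, 45.2 and 99.9 CPM. In cluster 5 of the library labelled treated they had 226, 88.1 and 163 CPM, against lowest values of 131, 48.1 and 108 CPM. MTA2 ranged from 5.27 to 11.0 CPM in the library labelled untreated and from 11.2 to 24.6 CPM in the library labelled treated. The clusters nearest to each other, 6 of the library labelled untreated (7.20 to 16.1 CPM, from 26 UMIs) and 2 of the library labelled treated (9.31 to 13.4 CPM), had overlapping intervals.

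Cluster 6 of the library labelled treated stood apart, with 452 cells and a median of 4546 UMIs per cell, the lowest of the clusters described. It had the lowest level of HDAC1 and HDAC2 (30.4 and 345 CPM) and the highest of MTA2, SIN3A, MTA1 and HDAC3 (24.6, 27.3, 53.7 and 55.4 CPM) among the clusters of that library. The HDAC2 interval (321 to 370 CPM) lay apart from those of the other clusters of the library. The intervals of HDAC1 (23.6 to 38.4 CPM), MTA1 and HDAC3 overlapped that of another cluster. So did those of SIN3A (20.9 to 35.0 CPM, from 62 UMIs) and MTA2 (18.6 to 32.0 CPM, from 56 UMIs). The nuclear RNA MALAT1 had 35582 CPM in cluster 6, against 11428 to 30181 CPM in the other clusters of the library. Mitochondrially encoded transcripts took 5.42% of UMIs, against 4.26% to 5.17%. The described clusters of the library labelled untreated ranged from 9377 to 34462 CPM of MALAT1 and from 4.06% to 5.77% mitochondrially encoded UMIs. Without this cluster the ratio was 0.682 (0.650 to 0.716) for HDAC1, 0.854 for HDAC2, 1.37 (1.24 to 1.52) for SIN3A and 1.74 (1.54 to 1.98) for MTA2.

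**Figure D5:**
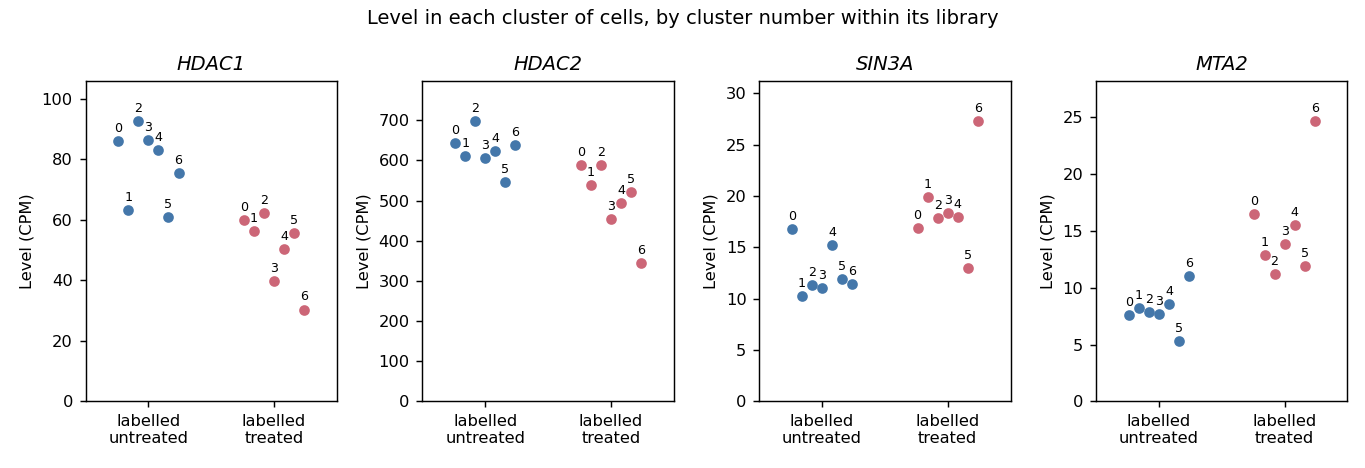
Level of HDAC1, HDAC2, SIN3A and MTA2 (CPM, linear axis from 0) in each cluster of at least 50 cells, with the cluster's number within its library. Cluster 6 of the library labelled treated has the lowest HDAC1 and HDAC2 and the highest SIN3A and MTA2. Of these, HDAC2 alone had a counting interval (not drawn) apart from those of the other clusters of that library.

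Over the 14 clusters of both libraries, HDAC1 and HDAC2 had like patterns, with a Pearson r of 0.95 on log2(CPM + 1). It was 0.77 over the 7 clusters of the library labelled untreated, 0.98 over those of the library labelled treated and 0.95 over the latter without cluster 6. Clusters share a library and differ in depth, so r is a description only. Of 5522 genes compared, those most like HDAC1 were PCMT1 (r of 0.97), ANXA6 (0.96) and HDAC2. Those most like HDAC2 were PCMT1, LDHB (both 0.96) and HDAC1. PCMT1 encodes a protein repair methyltransferase and had a ratio of 0.805, LDHB a lactate dehydrogenase subunit with a ratio of 0.817, and ANXA6 an annexin with a ratio of 0.516. Those most like MTA2 were PEG3 (0.93), an imprinted zinc finger gene with a ratio of 1.68, PDXDC1 (0.90) and BROX (0.90). The likeness of PEG3 to MTA2 was 0.87 among the 7 clusters labelled untreated, 0.82 among the 7 labelled treated and 0.30 among the latter without cluster 6. In the same order, the values were 0.70, 0.76 and 0.32 for PDXDC1 and 0.24, 0.86 and 0.28 for BROX.

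Variation between cells was compared with counting error. The variance of thinned UMIs per cell over their mean, which is 1 for counting alone, ran from 0.983 for SIN3A to 1.29 for HDAC2 in the library labelled untreated, and from 0.977 for HDAC3 to 1.28 for HDAC2 in the library labelled treated. Genes in the members' range of levels had medians of 1.03 and 1.02, and 95% of them lay below 1.17 and 1.14, which HDAC2 exceeded in both libraries. This quotient grows with the mean, and HDAC2 has the highest mean, so it does not rank the members by their variation. Over single thinned cells the 45 pairs of members had Pearson r from -0.04 to 0.05 in the library labelled untreated and from -0.02 to 0.06 in the library labelled treated. HDAC1 with HDAC2 was highest in both, at 0.05 over 3892 cells and 0.06 over 6012 cells. Counts this sparse hold r near 0, so these values do not show whether the members vary together.

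In the GENCODE v29 annotation of GRCh38 no other gene overlaps HDAC1 or MTA2, while genes with clone-based names lie over the 3′ ends of HDAC3, HDAC8, KDM1A, SIN3A and CHD4. How reads were assigned between overlapping genes or by strand is not given in the sources used here. HDAC1 has the pseudogenes HDAC1P1 and HDAC1P2, so reads of near-identical copies are an uncertainty of its level.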

How the data were processed

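Per the labels' protocols, 1 single-cell library each of untreated and domatinostat-treated WaGa cells was made with 10x Genomics 3′ chemistry. Cell Ranger, Seurat and hg19 stand in the submitters' processing notes, with no versions; annotation and cell filters are not given in the sources used here. Both samples are in 1 table of natural log values that the authors deposited, which back-transformed sum to 10000 in each of 10816 cells. All values above 0 were whole multiples of the smallest value in their cell (tolerance 1e-06), so UMIs were recovered. Cells were assigned by the treatment word ending each cell name.

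UMIs were summed per library and divided by its total (CPM). Ratios have exact Clopper-Pearson intervals, checked on simulated data. With 1 library per group there was no test. PCR duplicates are removed by UMIs, and intervals cover counting error only. Lists used genes with at least 50 UMIs, and the 2 highest and 2 lowest ratios of each list and paralogs of members were named. A gene that this rule selects is not reported here. Like genes had at least 2000 UMIs. Genes named as cluster leaders were picked after their values were seen. Members and lists were chosen with earlier results of these data known. No cell was filtered and doublets were not called. Leaving out the deepest 5% of cells per library was an alternative, beside other scalings, cell weights, minimums, depth windows and phases. Thinning kept 4351 UMIs (the 10th percentile in the library of lower depth) and dropped 245 cells labelled untreated and 667 labelled treated. Phases came from 40 S and 54 G2/M genes with scanpy 1.11.5, and clusters from Leiden (resolution 0.5, 2000 variable genes, 20 components, 15 neighbours) within each library. Python 3.11.15, numpy 2.4.6 and scipy 1.17.1 were used.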

Additional observations from a re-analysis of the deposited data

How the results depend on the processing

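No paired analysis was possible because each group had 1 library and the labels give no replicate numbers, and leaving out a library would leave no comparison. The windows of 4000 to 7000 and 12000 to 20000 UMIs and the omission of cluster 6 of the library labelled treated were chosen after seeing the data. Of 140 ratios of members under alternatives, 14 lay on the other side of 1 from the ratio of all cells. Of these, 9 belong to HDAC3, HDAC8 and RCOR1, whose intervals hold 1, with HDAC3 reaching 1.37 in G1 and 1.17 in cells of 4000 to 7000 UMIs, and 5 to KDM1A and CHD4. HDAC1 and HDAC2 stayed below 1 and SIN3A, MTA1 and MTA2 above 1 in all 14 alternatives, from 0.615 to 0.955 for HDAC1 and from 1.58 to 2.13 for MTA2. Outside these alternatives, thinned cells called G1 gave 1.15 for HDAC1. The KDM1A ratio turned to 1.02 in cells of 4000 to 7000 UMIs and likewise in G1, and to 1.11 in cells called S. In thinned cells the KDM1A ratio was 0.948 (0.811 to 1.11) in G1 and 1.05 (0.982 to 1.13) in S. The CHD4 ratio turned to 0.911 in cells called G2/M and 0.983 in cells of 12000 to 20000 UMIs. In thinned cells called G2/M the CHD4 ratio was 0.983 (0.905 to 1.07). The cause of these shifts was not tested. Members at least 1.5-fold higher numbered 2 in cells of 4000 to 7000 UMIs and likewise in G1. Members at least 1.5-fold lower numbered 1 in cells called G2/M and in cells of 12000 to 20000 UMIs. At the lower fold mark, 4 were higher and 0 lower in cells called G1, and 2 were lower in cells of 4000 to 7000 UMIs. The share of all genes past these folds was not counted in such cells, so these counts are no result about the members. In cells called G1, SIN3A and MTA2 had 83 and 71 UMIs over both libraries. The CoREST median log2 ratio was 0.043 in cells of 7000 to 12000 UMIs, -0.16 in cells of 4000 to 7000, -0.0068 in G1, -0.00081 in S, -0.13 in G2/M and 0.0032 in thinned cells. The MiDAC median was -0.17 in cells of 7000 to 12000 UMIs, -0.31 in cells of 4000 to 7000, -0.066 in G1, -0.18 in S and -0.30 in G2/M. The SIN3 median was -0.028 in cells of 4000 to 7000 UMIs, and the median of the NCoR list 0.059 in G1 and -0.37 in G2/M. Over all genes, those at least 1.5-fold higher numbered 406, and 636 in cells of 7000 to 12000 UMIs, 213 with a pseudocount of 1 CPM, 231 with a minimum of 500 UMIs and 1604 with at least 1 UMI in each library. Those at least 1.5-fold lower numbered 1567, with 619 and 4411 under these minimums. At the lower fold mark, 1417 were lower under the minimum of 500 UMIs, and 3169 were higher and 6633 lower with at least 1 UMI in each library, since a minimum changes the genes counted.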
